A study of Mus musculus with 8 samples.

Results

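The genes of MHC class II antigen presentation were followed in the epididymal fat of 8 mice. The list named 9 genes: H2-Aa, H2-Ab1, H2-Eb1, Cd74, H2-DMa, H2-DMb1, H2-Oa, H2-Ob and Ciita. A probe set, the group of short probes that reads out 1 transcript on the array, counted as a member when the probe annotation gave it exactly 1 gene symbol and that symbol was on the list. This gave 16 probe sets of 8 genes, among 34958 single-symbol probe sets of 18194 genes. In the GRCm38.p6 annotation Ciita lies on chromosome 16, Cd74 on chromosome 18 and the other 7 genes on chromosome 17. H2-DMb1 had no probe set of its own, since the probe sets that carry its symbol also carry that of its neighbour H2-DMb2. Of the 16 probe sets, 13 passed a filter that kept the brighter part of the array (mean signal at or above the median probe set, about 40.5), and each of the 8 genes kept at least 1.

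The animals were male C57BL/6J mice bought at 6 weeks of age, with 1 array per mouse and 2 mice per group. Telmisartan mice ate a high-fat diet (HFD, 30% of calories as fat) for 24 weeks and then also drank telmisartan at about 3 mg/kg/day over 5 weeks. Candesartan mice had the same diet and times with candesartan at the same dose. HFD mice continued on the high-fat diet with no drug, and chow mice ate a control diet with 10% of calories as fat. Telmisartan and candesartan are angiotensin receptor blockers, drugs prescribed against high blood pressure. No genetic change or transgene was described for any group. Values are deposited signal intensities, scaled here to 1 common mean on every array, and the groups hold 2 arrays each, which limits the precision of every value below. The tissue's own markers were present: Adipoq, the fat cell hormone adiponectin, read 18324 and 15764 in telmisartan mice, 16926 and 16606 in candesartan mice, 15646 and 16814 in HFD mice, and 15423 and 17415 in chow mice. Of the epididymis and testis markers, 0 were bright enough to be tested.

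MHC class II molecules carry peptides from engulfed proteins to the cell surface, where CD4 T cells read them. An alpha and a beta chain assemble around the invariant chain (Cd74), which is trimmed by cathepsins in the endosome, and the H2-DM dimer then exchanges the last fragment for a peptide while the H2-O dimer restrains H2-DM. Macrophages, dendritic cells and B cells express the set most, and the coactivator Ciita switches it on through promoter elements called the X box and the Y box; in fat, macrophages that gather during obesity are a known source of class II, and fat cells themselves can also express it.

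Promoter sequences of the class II genes were searched for these elements. All the genes shown here lie on chromosome 17, in the MHC region. RefSeq promoter sequences (GRCm38.p6, 250 bases before to 50 after the start) were held for H2-Oa, H2-DMa, H2-DMb1, H2-Ob, H2-Aa and H2-Eb1. The search looked on both strands for the X box core AGCAAC, the Y box core ATTGG, and the pair AGNAAC followed by ATTGG after 20 to 35 bases, where N is any base. The windows below come from chr17:34305763-34305820 (H2-Eb1, plus strand), chr17:34287859-34287923 (H2-Aa, minus strand), chr17:34153084-34153142 (H2-DMb1, plus strand), chr17:34145107-34145171 (H2-DMb2, plus strand), chr17:34092290-34092348 (H2-Oa, plus strand) and chr17:34238805-34238860 (H2-Ob, plus strand). They are shown because these genes are coregulated through the 2 elements in textbook accounts, and capitals mark the matched cores.
H2-Eb1: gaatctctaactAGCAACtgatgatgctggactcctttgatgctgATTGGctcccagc
H2-Aa: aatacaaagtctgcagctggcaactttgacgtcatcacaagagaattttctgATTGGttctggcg
H2-DMb1: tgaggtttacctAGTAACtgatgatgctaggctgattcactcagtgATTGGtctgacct
H2-DMb2: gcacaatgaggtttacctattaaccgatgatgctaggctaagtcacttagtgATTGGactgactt
H2-Oa: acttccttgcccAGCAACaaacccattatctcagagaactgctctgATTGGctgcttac
H2-Ob: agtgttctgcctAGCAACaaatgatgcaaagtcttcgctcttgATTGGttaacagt
The pair was found in H2-Eb1, H2-DMb1, H2-Oa and H2-Ob, with 27, 28, 28 and 25 bases between the cores, and H2-Aa and H2-DMb2 held the Y box core alone. H2-Eb2, a related gene outside the list whose window is not shown, also held the pair, with 27 bases between the cores. H2-DMa has 2 promoters in the table, of which 1 held ATTGG and neither held the pair. Over all 32851 promoters the pair was found in 0.831%, the X box core in 14.8% and the Y box core in 37.4%. A match describes these letters only, and no binding was measured.

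The antigen-presenting chains were higher on both HFD arrays than on both chow arrays, and telmisartan array 2 read higher still. H2-Aa, an alpha chain, read 8963 and 13592 in telmisartan mice, 8541 and 7926 in candesartan mice, 8577 and 8293 in HFD mice, and 5155 and 6293 in chow mice. H2-Ab1, its beta chain partner, read 5605 and 10543 in telmisartan mice, 5243 and 4383 in candesartan mice, 5313 and 4450 in HFD mice, and 2576 and 3241 in chow mice. H2-Eb1, the beta chain of the second class II molecule, read 7226 and 13249 in telmisartan mice, 6927 and 6308 in candesartan mice, 6883 and 6721 in HFD mice, and 3516 and 4288 in chow mice. For these chains every high-fat array lay above both chow arrays, the candesartan and HFD arrays overlapped, and both telmisartan arrays lay above all HFD and candesartan arrays on the probe set used. On 2 of the other 3 H2-Aa probe sets telmisartan array 1 lay below both HFD arrays.

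H2-Eb1 has a partner, H2-Ea, that this mouse strain is known not to make from its own allele. Its 3 probe sets read between 0.617 and 17.7 on the 8 arrays and were too dim to be tested. H2-Eb2, a related beta chain, read between 4.36 and 23.7 and was likewise too dim. Beside these, the values for H2-Eb1 describe a beta chain whose alpha chain partner was not measured above background.

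Cd74, the invariant chain that escorts new class II molecules, followed the chains with a smaller spread. It read 12741 and 14223 in telmisartan mice, 11206 and 11742 in candesartan mice, 11194 and 11947 in HFD mice, and 7711 and 9363 in chow mice. The telmisartan arrays lay above all others, and the chow arrays below all others.

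The peptide-exchange gene H2-DMa read 1220 and 1997 in telmisartan mice, 1005 and 929 in candesartan mice, 1040 and 870 in HFD mice, and 716 and 620 in chow mice. Both telmisartan arrays again lay above all other arrays. Its second probe set read between 23.8 and 54.4 and was too dim for the filter.

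The partner chain H2-DMb1 could not be read apart from H2-DMb2. The first of the 2 probe sets annotated to both genes read 710 and 885 in telmisartan mice, 668 and 660 in candesartan mice, 627 and 557 in HFD mice, and 232 and 223 in chow mice. The second read 1925 and 2229 in telmisartan mice, 1781 and 1820 in candesartan mice, 1926 and 1549 in HFD mice, and 499 and 583 in chow mice. For both probe sets all 6 high-fat arrays lay above both chow arrays. The brightest probe set annotated to H2-DMb2 alone read 181 and 183 in telmisartan mice, 170 and 109 in candesartan mice, 168 and 157 in HFD mice, and 146 and 142 in chow mice.

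H2-Oa and H2-Ob form the dimer that restrains H2-DM, best known in B cells. H2-Oa read 70.9 and 90.9 in telmisartan mice, 73.4 and 47.6 in candesartan mice, 62.2 and 63.7 in HFD mice, and 38.1 and 34.98 in chow mice. H2-Ob read 39.7 and 60.04 in telmisartan mice, 71.5 and 33.5 in candesartan mice, 78.2 and 55.7 in HFD mice, and 23.7 and 33.5 in chow mice. Both read below the filter's threshold on the chow arrays, so these genes were tested because the high-fat arrays lifted their mean, and their higher reading in those groups is partly a condition of the test. H2-Ob was the only member whose mean was lower in telmisartan mice than in HFD mice.

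Ciita, the master coactivator, read 64.9 and 152 in telmisartan mice, 70.7 and 84.2 in candesartan mice, 88.0 and 101 in HFD mice, and 55.3 and 66.1 in chow mice. The telmisartan arrays spanned the HFD range, so these groups overlapped. The other 2 Ciita probe sets read between 10.1 and 79.2 and were too dim for the filter.

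**Figure D1:**
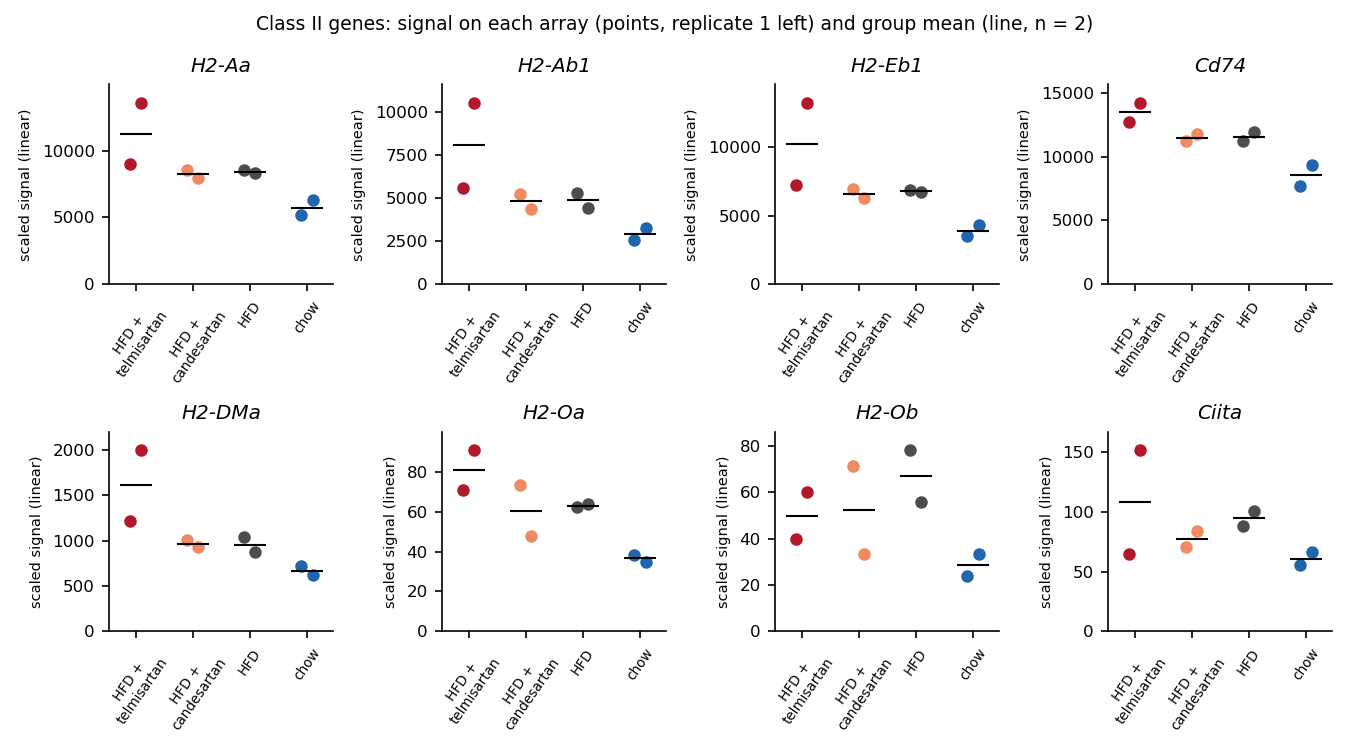
Scaled signal on a linear axis (vertical) for the 8 measured class II genes in telmisartan, candesartan, HFD and chow mice (left to right, points are arrays, lines are means of 2). The chow arrays lie lowest for H2-Aa, H2-Ab1, H2-Eb1, Cd74, H2-DMa and H2-Oa, and telmisartan array 2 reads highest in all of these, 13592 for H2-Aa.

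High-fat feeding was set against chow to ask what the diet does to class II expression. All 8 measured genes were higher in HFD than in chow mice, with arrays that did not overlap, while 27.8% of all genes tested were higher in this way. H2-Oa and H2-Ob passed the filter through the high-fat arrays, so their place in this count was partly set by it, and it is 6 of 6 without them. The median log2 difference of the 8 was 0.69, a fold of 1.62, and 0.60 over the 6, beside −0.013 over all 11232 genes tested. No member passed limma's test at an adjusted p under 0.05 over all genes, where 8.09% of genes did, although 7 of the 8 had an unadjusted p under 0.05, beside 24.1% of all genes. Cd74 came nearest, with a log2 fold change of 0.44 (95% interval 0.17 to 0.71, adjusted p = 0.0555), and H2-Eb1 followed at 0.81 (0.26 to 1.36, adjusted p = 0.0808). The size ran from 0.44 for Cd74 to 0.81 for H2-Eb1 over the 6, and was 0.79 for H2-Oa and 1.23 for H2-Ob. Of the 6, 5 had intervals above 0, that of Ciita (0.64, −0.21 to 1.49) including it. Without telmisartan array 1, and likewise without telmisartan array 2, the same 5 members, H2-Aa, H2-Ab1, H2-Eb1, Cd74 and H2-DMa, passed, while the count over all genes, 909 of 11232 as reported, was 1589 and 1611. The model takes its spread from all 4 groups, and over all genes the log2 gap between the 2 arrays of a group had an SD of 0.484 for telmisartan, 0.314 for candesartan, 0.273 for HFD and 0.445 for chow. Without chow array 2, Cd74 alone passed, with 615 genes in all. In bulk tissue, more cells that make class II RNA and more class II RNA per cell cannot be told apart.

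Of the members, 7 stood further from chow in telmisartan than in HFD mice, and H2-Ob stood nearer. In telmisartan against chow, H2-Ab1 rose by 1.41 (95% interval 0.80 to 2.02, adjusted p = 0.0162), H2-Eb1 by 1.33 (0.78 to 1.89, adjusted p = 0.0136) and H2-DMa by 1.23 (0.72 to 1.74, adjusted p = 0.0135), all log2 fold changes by limma. H2-Aa rose by 0.95 (adjusted p = 0.0181) and Cd74 by 0.66 (adjusted p = 0.0127). The median over the 8 was 1.05, a fold of 2.06, beside −0.030 over all genes. These 5 members passed, beside 8.44% of all genes, and the other 3 gave 1.14 for H2-Oa (adjusted p = 0.0544), 0.79 for H2-Ob and 0.71 for Ciita. Arrays did not overlap for 7 of the 8, all but Ciita, beside 22.4% of genes. H2-Oa and H2-Ob passed the filter through the high-fat arrays, so their place in this count was partly set by it. Without them it was 5 of 6, and the member median was 1.09. Without chow array 1 only Cd74 and H2-DMa passed, with 794 of all genes against 948 as reported. In a fit of telmisartan and chow arrays alone 0 members passed, with 198 genes in all, and with no signal filter 0 did, with 332 of 18193 genes. Without telmisartan array 2 the member median was 0.76, and 1.32 without array 1. Leaving out telmisartan array 2 gave 0.10 for Ciita and 0.49 for H2-Ob, and leaving out array 1 gave 1.32 for Ciita (adjusted p = 0.0171) and 1.09 for H2-Ob.

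In candesartan against chow the 8 members had a median log2 fold change of 0.62, beside −0.018 over all genes. All 8 were higher on both candesartan arrays than on both chow arrays, beside 25.8% of genes. The place of H2-Oa and H2-Ob in this count was again partly set by the filter. Without them it was 6 of 6, with a median of 0.53. None passed limma's test, where 6.59% of genes did, and 6 had an unadjusted p under 0.05, beside 21.3% of genes. Without H2-Oa and H2-Ob the unadjusted count was 5 of 6. H2-Eb1 gave 0.77 (95% interval 0.21 to 1.32, adjusted p = 0.106) and Cd74 gave 0.43 (0.16 to 0.70, adjusted p = 0.0687). Here too H2-Aa, H2-Ab1, H2-Eb1, Cd74 and H2-DMa passed without telmisartan array 1 and likewise without array 2, while the count over all genes, 740 as reported, was 1306 and 1315. Without chow array 2, Cd74 alone passed, with 460 genes in all. The 3 comparisons with chow share its 2 arrays, so their values are given side by side and are not independent.

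**Figure D2:**
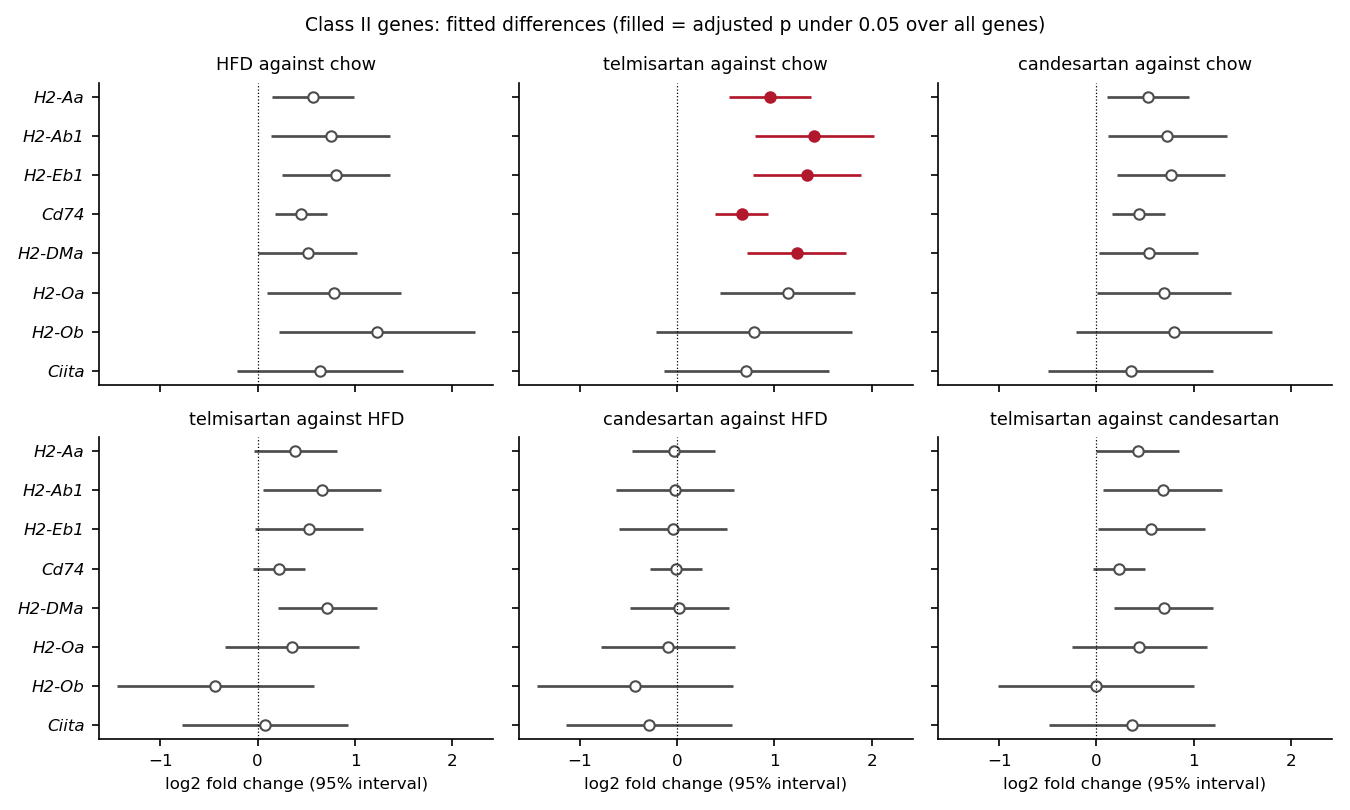
Log2 fold change (horizontal, with its 95% interval) of each class II gene in 6 comparisons, with filled red points marking an adjusted p under 0.05 over all genes. The 5 red points are all in telmisartan against chow, at 0.66 for Cd74 to 1.41 for H2-Ab1.

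The drugs were set against HFD alone, and against each other at their matched dose and time, to ask whether class II expression differs between drugs that share a target. Telmisartan against HFD gave a positive log2 fold change for 7 of 8 members, with a median of 0.37 beside −0.0078 over all genes. Both telmisartan arrays lay above both HFD arrays for 6 members, beside 18.5% of all genes. H2-DMa differed by 0.71 (95% interval 0.21 to 1.22) and H2-Ab1 by 0.66 (0.050 to 1.27), and these 2 had unadjusted p-values under 0.05, but the smallest adjusted p of the 8 was 0.766 by limma. Across all genes 0% passed in this comparison, and 696 had an unadjusted p under 0.05. The difference rests on telmisartan array 2: the median over the members was 0.11 without it and 0.69 without array 1.

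Candesartan against HFD gave a median of −0.038, with 7 of 8 values below 0. The values ran from −0.43 for H2-Ob to 0.022 for H2-DMa. The arrays were not overlapping and higher for 0 members, beside 17.9% of genes, and lower for 1, Ciita, beside 15.5%. None passed by limma, none had an unadjusted p under 0.05, and 0% of all genes passed, with 140 at an unadjusted p under 0.05. For Cd74 the interval was −0.28 to 0.26, which bounds the difference within that range, and for H2-Ob it was −1.44 to 0.58.

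Telmisartan against candesartan gave positive values for 7 of 8 members, with a median of 0.43 beside −0.0061 over all genes. H2-DMa differed by 0.69 (95% interval 0.18 to 1.20), H2-Ab1 by 0.68 (0.071 to 1.29), H2-Eb1 by 0.57 (0.012 to 1.12) and H2-Aa by 0.42 (0.00014 to 0.85). The intervals of these 4 lay above 0, that of H2-Aa barely. Their adjusted p-values over all genes were 0.924 by limma, and 0% of genes passed, with 550 at an unadjusted p under 0.05. With every probe set as its own feature, the other H2-Aa probe sets gave 0.19 (−0.27 to 0.66), 0.36 (−0.38 to 1.11) and 0.62 (0.27 to 0.96). Arrays were higher in telmisartan without overlap for 5 members, beside 15.6% of genes. The median was 0.14 without telmisartan array 2 and 0.85 without array 1. A p that misses the threshold does not show that the drugs act alike on these genes, and the H2-Ob interval, −1.01 to 1.01, leaves a change of either sign possible.

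The separate probe sets of each member gene were higher in every high-fat group than in chow, while their difference between telmisartan and HFD varied. When each probe set was tested as its own feature, 4.88% of 22519 features passed in HFD against chow, 5.78% in telmisartan against chow and 3.96% in candesartan against chow. The 4 H2-Aa probe sets gave 0.57 to 0.90 in HFD against chow and 0.87 to 1.39 in telmisartan against chow. Of these, 1 passed in HFD against chow (0.88, limma adjusted p = 0.0152), and the other 3 did not. In telmisartan against HFD the 4 H2-Aa probe sets gave 0.069 to 0.50. The dimmer of the 2 on which telmisartan array 1 lay below both HFD arrays read 282 and 588 in telmisartan mice, 284 and 354 in candesartan mice, 337 and 329 in HFD mice, and 150 and 211 in chow mice. The other read 6636 and 8405 in telmisartan mice, 6887 and 6201 in candesartan mice, 7250 and 6990 in HFD mice, and 3247 and 5107 in chow mice. The 3 H2-Ab1 probe sets gave 0.64 to 0.71 in telmisartan against HFD, 0.67 to 0.78 in HFD against chow and 1.32 to 1.49 in telmisartan against chow. The probe sets that H2-DMb1 shares with H2-DMb2 rose by 1.38 (limma adjusted p = 0.00267) and by 1.68 (adjusted p = 0.00152) in HFD against chow. They are not members under the rule, and which of the 2 genes they read cannot be told apart. The 3 probe sets of H2-DMb2 alone gave 0.038 to 0.53 in that comparison and did not pass. In candesartan against chow these 3 gave −0.10 to 0.014.

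**Figure D3:**
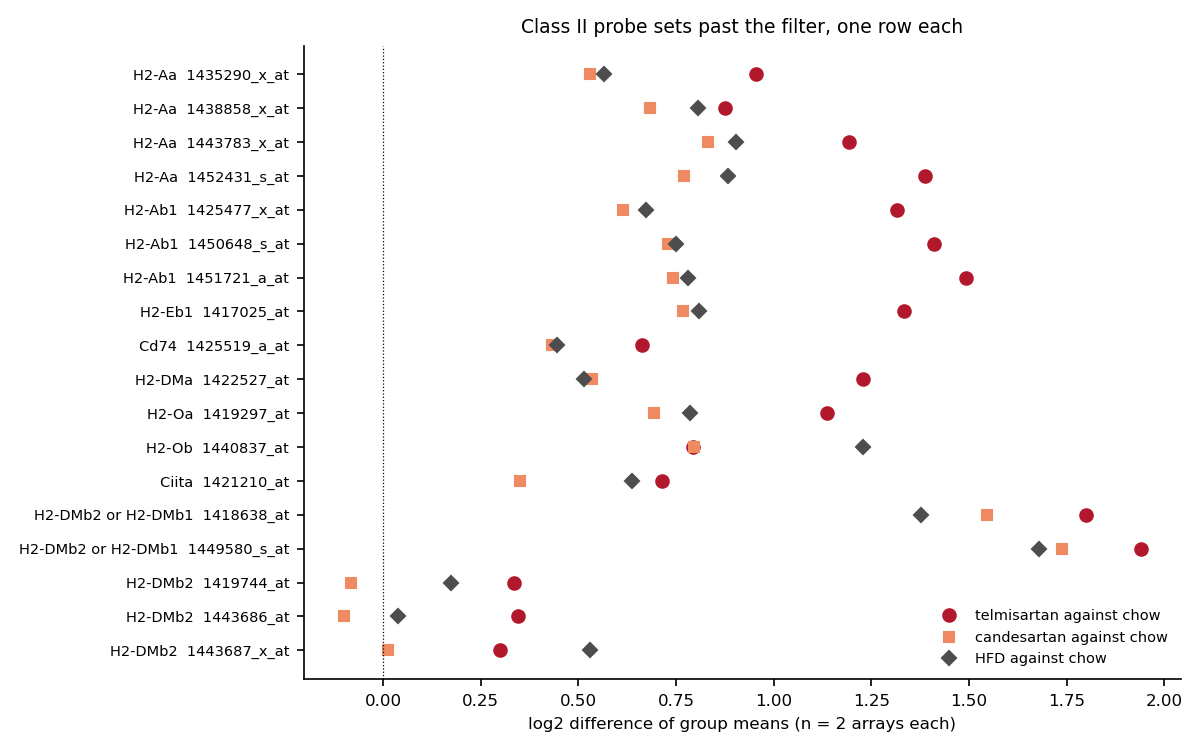
Log2 difference of group means (horizontal) for each class II probe set past the signal filter, named by its annotation. Red circles are telmisartan against chow, orange squares candesartan against chow and grey diamonds HFD against chow; the shared H2-DMb2 or H2-DMb1 probe sets lie furthest right, at 1.38 and 1.68 for HFD against chow.

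The members also moved together from array to array. Over the 6 high-fat arrays, Pearson's r of log2 signal between the brighter members H2-Aa, H2-Ab1, H2-Eb1, Cd74 and H2-DMa was 0.826 to 0.999 (10 pairs), and over all 8 arrays 0.824 to 0.998. These 5 were grouped after their values were seen. Pairs that include H2-Oa, H2-Ob or Ciita gave −0.232 to 0.829 over the 6 high-fat arrays. The arrays share their scaling and tissue makeup, chow arrays stand apart from the rest, and telmisartan array 2 is high for most members, so these values describe the 8 arrays and carry no p. Other genes were ranked by their likeness to the mean of the members. Symbols that name clones or predicted genes were left out, and 10892 genes were ranked. The most alike of these over 8 arrays were Lst1 (r = 0.996), Lcp2 (0.986), Usp8 (0.981), Clec4a3 (0.981), Slamf8 (0.978), Dip2b (0.976), Themis2 (0.973) and Nkg7 (0.973). Lst1, a leukocyte gene in the MHC region, read 297 and 570 in telmisartan mice, 323 and 255 in candesartan mice, 327 and 302 in HFD mice, and 156 and 195 in chow mice. Telmisartan array 2 was its highest array and the chow arrays its lowest, as for H2-Aa, H2-Ab1, H2-Eb1, Cd74 and H2-DMa. Over the 6 high-fat arrays the nearest were Spg7 (r = 0.998), Lst1 (0.991), Gpatch4 (0.983), Slc35f5 (0.981), Pld4 (0.981), Usp12 (0.981), Mbd1 (0.979) and Snrnp35 (0.978).

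The genes that prepare peptides and load class II molecules were also read. Of 14 loading and processing genes tested, 6 rose and 0 fell in HFD against chow, beside 5.15% of all genes rising and 2.95% falling. Ctss, the cathepsin that trims the invariant chain, rose by 1.85 (adjusted p = 0.00106), and read 7332 and 10560 in telmisartan mice, 8433 and 9153 in candesartan mice, 8241 and 8870 in HFD mice, and 2140 and 2634 in chow mice. Lgmn, an endosomal protease that cuts antigen, rose by 1.77 and Ifi30, a thiol reductase that opens disulfide bonds in antigen, by 1.55 (both adjusted p = 0.00263). The other 3 were Ctsz (0.74), Ctsb (0.54) and Ctsl (0.35). In telmisartan against chow 8 of the 14 rose, where 4.96% of all genes rose and 3.48% fell, and in candesartan against chow 7 rose, where 4.48% rose and 2.11% fell. Leaving out 1 array, the HFD count was lower without HFD array 1 or 2, and the telmisartan count without chow array 2. The candesartan count was lower without chow array 2, either HFD array or either candesartan array. In each of these settings the count over all genes was lower too. The median of the 14 in HFD against chow was 0.50 without HFD array 1 and 0.45 without array 2, beside 0.47 with all arrays.

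RFX, CREB and NF-Y are the factors that sit on the X and Y boxes and recruit Ciita. Of their 7 tested genes, 0 passed limma's test in any comparison. Of all genes, 8.09% passed in HFD, 8.44% in telmisartan and 6.59% in candesartan against chow, and 0% between the high-fat groups. In HFD against chow 1 of the 7 had an unadjusted p under 0.05, beside 24.1% of all genes. Without telmisartan array 1 the count was higher in each comparison with chow, and without array 2 in HFD and in candesartan against chow. The counts over all genes were higher in these settings too. Nfya, a subunit of NF-Y, gave 0.77 in HFD against chow (adjusted p = 0.0837), Creb1 0.49 (adjusted p = 0.279) and Rfxank −0.26 (adjusted p = 0.434). Rfx5, which binds the X box, gave 0.075 in HFD against chow (adjusted p = 0.834). Of 10 tested genes of the interferon gamma pathway and its regulators of Ciita, 3 rose in HFD against chow, beside 5.15% of all genes. They were Spi1 (PU.1, a myeloid transcription factor) by 1.76, Irf8 by 1.20 and Ifngr2, a receptor chain, by 0.61. Spi1, Irf8 and Ifngr2 also rose in telmisartan against chow, by 1.67, 1.501 and 0.80, and in candesartan against chow, by 1.65, 1.21 and 0.63. Of all genes, 4.96% rose in telmisartan against chow and 4.48% in candesartan against chow. The HFD count was lower without chow array 2 or either HFD array. The telmisartan count was higher without telmisartan array 1 and lower without chow array 2. The candesartan count was lower without chow array 2 or either candesartan array. In each of these settings the count over all genes moved the same way. Ifng, the cytokine itself, was too dim to be tested.

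On the receiving side, most CD4 T cell genes were too dim to be tested. Cd4, the coreceptor for class II, read between 1.09 and 11.0 on the 8 arrays. In HFD against chow 8.09% of all genes passed limma's test and 24.1% had an unadjusted p under 0.05. Of 12 genes of this list 3 were tested, of which 0 passed there and 1 had an unadjusted p under 0.05. The 3 tested were Lag3 at −0.87, Cd3d at 1.22 and Cd3g at 0.78. Of 4 costimulatory genes tested, 0 passed in HFD against chow by limma, with 1 at an unadjusted p under 0.05, beside the same shares of all genes. Cd274 (PD-L1) rose by 0.66 in telmisartan against chow (limma adjusted p = 0.0285), where 4.96% of all genes rose. It rose by 0.79 in candesartan against chow (adjusted p = 0.0172), where 4.48% rose. The telmisartan count was higher without telmisartan array 1 and lower without any 1 of the other 7 arrays. The candesartan count was lower without chow array 1 or either candesartan array. In each of these settings the count over all genes moved the same way. In HFD against chow Icosl gave 0.40 (adjusted p = 0.207), Cd274 0.31 (adjusted p = 0.237) and Cd40 0.48 (adjusted p = 0.404). Cd86, a costimulator of T cells, gave 0.47 in HFD against chow (adjusted p = 0.488).

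MHC class I molecules, the companion pathway, present peptides made inside the cell. Of 16 tested, 1 rose in HFD against chow, where 5.15% of all genes rose: H2-K1 by 0.52 (limma adjusted p = 0.0251). Psme1 gave −0.43 (adjusted p = 0.0555) and Psmb10 0.45 (adjusted p = 0.0748). In telmisartan against chow, where 4.96% of all genes rose, 4 rose: Psmb10 by 1.09, Psmb8 by 0.87, H2-K1 by 0.81 and Pdia3 by 0.47. In candesartan against chow, where 4.48% of all genes rose, 2 rose: H2-K1 by 0.44 and Psmb10 by 0.56. B2m, the shared light chain, gave 0.17 in HFD against chow (adjusted p = 0.326). The telmisartan count was higher without telmisartan array 1 and lower without any 1 of the other 7 arrays. The HFD count was lower without any 1 of the candesartan, HFD and chow arrays and higher without either telmisartan array. The candesartan count was lower without any 1 of the candesartan, HFD and chow arrays. In each of these settings the count over all genes moved the same way.

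Macrophage markers were higher in the high-fat groups. Of 19 macrophage markers, 16 rose and 0 fell in HFD against chow, where 5.15% of all genes rose and 2.95% fell. The median log2 fold change of the 19 was 1.31. Cd68, a lysosomal macrophage protein, rose by 2.36, Itgax (CD11c) by 3.10, Cd84 by 2.94, Msr1 by 2.78, Mpeg1 by 2.69 and Adgre1, a surface marker of mature macrophages, by 2.04. The summed signal of the 19 markers was 59130 and 90193 in telmisartan mice, 64887 and 74746 in candesartan mice, 70399 and 71625 in HFD mice, and 30552 and 34025 in chow mice. Telmisartan array 2 was the highest here as well, but telmisartan array 1 was the lowest of the high-fat arrays. The median of the 19 in telmisartan against HFD was −0.0011, beside 0.37 for the 8 class II members. In that comparison the medians were 0.27 for MHC class I, 0.47 for the 3 tested CD4 T cell genes and 0.25 for costimulatory genes. They were 0.14 for adipocyte, 0.058 for loading and processing and 0.029 for dendritic cell genes. The B cell (−0.29), transcription complex (−0.24) and interferon gamma (−0.093) lists lay below 0. Of the 16 class I genes, 5 had an unadjusted p under 0.05 by limma, beside 6.2% of all genes. The part of the macrophage markers in the class II values was not tested. The count of macrophage markers that rose in HFD against chow was lower without either HFD array or chow array 1. The count over all genes was lower in these settings too.

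The B cell, dendritic cell and adipocyte lists were read in HFD against chow, where 5.15% of all genes rose and 2.95% fell. The B cell list gave 3 rises of 7 tested in HFD against chow: Cd22 by 2.69, Blnk by 2.61 and Cd37 by 1.29. The summed signal of its 10 measured genes was 14897 and 21508 in telmisartan mice, 17370 and 11921 in candesartan mice, 16899 and 16840 in HFD mice, and 7921 and 10460 in chow mice. Cd79b, a part of the B cell receptor, gave 1.42 (adjusted p = 0.101). The HFD count was lower without either HFD array, as was the count over all genes. Ighm, an immunoglobulin heavy chain, made up most of this sum, and without it the sums were 2168 and 3477 in telmisartan mice, 3194 and 3365 in candesartan mice, 3361 and 3332 in HFD mice, and 736 and 878 in chow mice. Within these sums Blnk read 1645.5 and 2002 in HFD mice and 302 and 292 in chow mice. Cd79a read 216 and 98.0 in HFD mice and 38.1 and 50.1 in chow mice. Ms4a1 read 211 and 104 in HFD mice and 48.7 and 49.7 in chow mice. Of 6 dendritic cell markers tested, Sirpa alone rose, by 1.84 (limma adjusted p = 0.00812). Cd209a gave −1.41 (adjusted p = 0.0623), Batf3 0.51 (adjusted p = 0.284) and Zbtb46, a defining dendritic factor, −0.37 (adjusted p = 0.529). Without either HFD array the count for this list was lower, as was the count over all genes. The summed signal of the 11 measured dendritic cell markers was 2135 and 3498 in telmisartan mice, 2623 and 3014 in candesartan mice, 2822 and 3029.5 in HFD mice, and 1495 and 1583 in chow mice. Without Sirpa, which macrophages also express, the sums were 866 and 876 in telmisartan mice, 680 and 749 in candesartan mice, 729 and 852 in HFD mice, and 957 and 926 in chow mice. The median log2 fold change of the 6 tested markers was −0.16 in HFD against chow. Of 10 adipocyte markers, 0 rose and 2 fell in HFD against chow, Slc2a4 (GLUT4) by 1.70 and Pparg by 0.81. This count was lower when either HFD array or either chow array was left out, as was the count over all genes. For the B cell, dendritic cell and adipocyte lists, too, their part in the class II values was not tested.

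**Figure D4:**
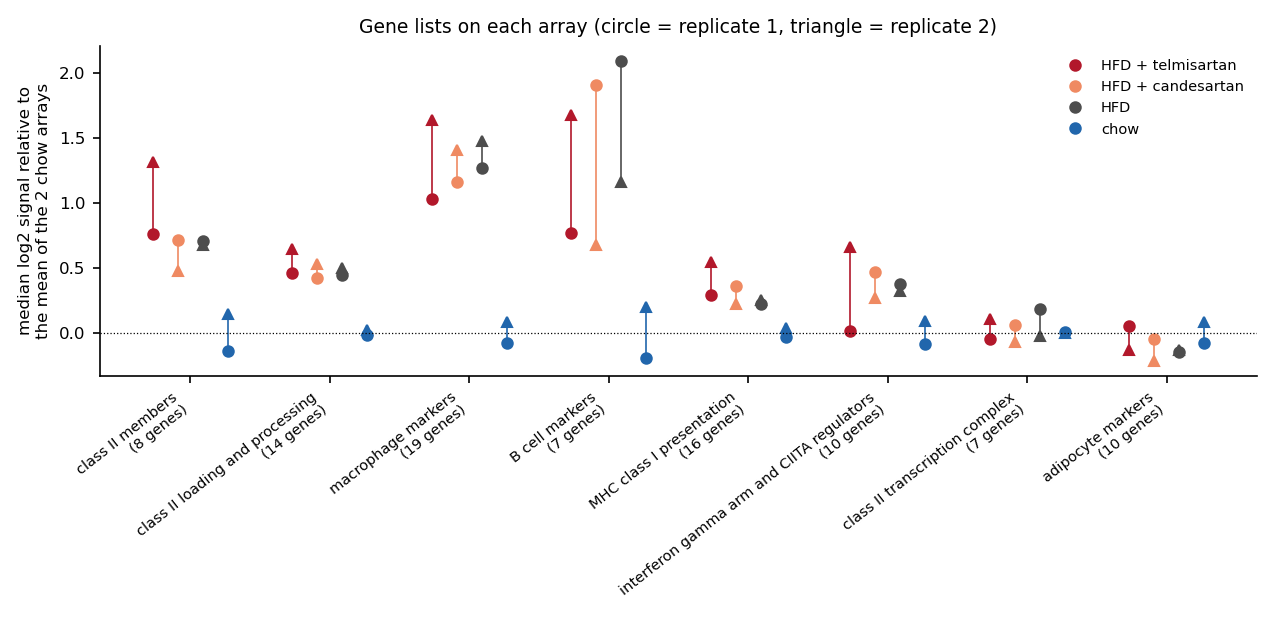
Median log2 signal of each gene list relative to the mean of the chow arrays (vertical), with circles for replicate 1 and triangles for replicate 2 of telmisartan, candesartan, HFD and chow mice (left to right within a list). Class II members lie at 0.76 and 1.32 in telmisartan mice and macrophage markers at 1.03 and 1.64, while the transcription complex stays near 0. In HFD mice class II members lie at 0.71 and 0.68 and macrophage markers at 1.27 and 1.48.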

How the data were processed

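The authors deposited 1 linear signal intensity for each probe set; per the series' design text, scans went through the GeneChip Analysis Suite. How that software summarised and scaled the probes was not given in the sources used here. Per the labels, groups came from the sample titles, and replicate numbers distinguish mice within a group. The log2 gaps between replicates 1 and 2 correlated between groups at −0.041 to 0.206, and the numbers were not treated as pairs.

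Every array was brought to the same 2%-trimmed mean (largest over smallest 1.48 before scaling), values under 6.69 (20th percentile) were set to that floor, log2 was taken, and probe sets under the 50th percentile of mean signal were left out, which kept 22519. A gene was represented by its brightest probe set, giving 11232 genes. Of 45101 probe sets, 64 are controls, 34958 have 1 symbol and 932 several. Gene identifiers of 34754 were found in the gene table and 0 symbols changed.

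limma 3.58.1 in R 4.3.3 fitted 4 group means to 8 arrays (4 residual degrees of freedom, variance trend), with two-sided tests adjusted by Benjamini-Hochberg over all genes and 95% intervals. An exact permutation test of 2 arrays against 2 cannot go below p = 0.333. The script was tested on simulated data. Tables were made with Python 3.11.15. The deposited table holds 1 column for each of the 8 samples. P-values rest on the spread between the 2 mice of a group, pooled over all 4 groups and drawn toward the variance trend over all genes. They do not measure the spread of the compared groups alone.

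The members, the gene lists and the tests were chosen with earlier results of these data known. Genes from a list were named by the 3 smallest p in HFD against chow and up to 6 called genes by size, with a fixed set always named. The alternatives were other scalings, floors, filters, variance models, probe-set rules, only the groups compared, a replicate block and each array left out; a fit of every probe set, including those with several symbols, list counts with arrays left out, member summaries without H2-Oa and H2-Ob, and marker sums without their leading gene were added after the data were seen.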

Additional observations from a re-analysis of the deposited data

Results flagged for a closer look

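The 2 probe sets annotated to both H2-DMb2 and H2-DMb1 lie outside the members, yet they carried a signal above chow on all 6 high-fat arrays. Their log2 differences in HFD against chow were 1.38 and 1.68, with means of 592 ± 49.01 and 1737 ± 267 in HFD mice and 228 ± 6.44 and 541 ± 59.04 in chow mice (SD, n = 2). With every probe set as a feature, both passed limma's test in HFD, telmisartan and candesartan against chow. They do not enter the member counts, and which gene they read was not tested.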

How the results depend on the processing

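Of the 20 alternative settings, 8 left out an array. Across the single members and comparisons, 867 values kept their direction and side of the threshold, 38 passed only under the alternative, 14 no longer passed and 23 changed sign. Members called in HFD against chow were 0 as reported, and 1 with the filter at the 70th percentile, 3 with only the 2 groups compared, 1 with all probe sets as features and 1 with the replicate block. Leaving out arrays gave 0 to 5. In candesartan against chow they were 2 with only the 2 groups compared, 1 with all probe sets as features, 1 with the replicate block and 0 to 5 leaving out arrays. In telmisartan against chow they were 0 with no filter, 0 with only the 2 groups compared, 5 with the replicate block and 2 to 7 leaving out arrays. The member median was 0.64 in telmisartan against HFD with median centring, where all genes shifted by 0.26, and leaving out arrays gave 0.11 to 0.69 there, 0.14 to 0.85 in telmisartan against candesartan and 0.76 to 1.32 in telmisartan against chow. With median centring, all genes shifted by −0.11 in HFD against chow, 0.16 in candesartan against HFD, 0.11 in telmisartan against candesartan and 0.14 in telmisartan against chow. In candesartan against HFD the sign turned with median centring for H2-Aa (0.12), H2-Ab1 (0.13), H2-Eb1 (0.11), Cd74 (0.14) and H2-Oa (0.060), which is under the shift of all genes, and for H2-Oa with quantile normalization (0.028). In telmisartan against candesartan it turned for H2-Ob with quantile normalization (0.14) and median centring (0.12). Leaving out arrays, candesartan against HFD gave −0.090 to 0.018 for H2-Aa, −0.15 to 0.11 for H2-Ab1, −0.11 to 0.026 for H2-Eb1, −0.059 to 0.035 for Cd74, −0.11 to 0.15 for H2-DMa, −0.40 to 0.22 for H2-Oa and −0.98 to 0.11 for H2-Ob. Telmisartan against candesartan gave −0.55 to 0.54 for H2-Ob and −0.25 to 0.97 for Ciita, and telmisartan against HFD gave −0.54 to 0.69 for Ciita. The cause of each change was not tested, beyond the fewer arrays or genes of the setting itself.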
